A study of Mus musculus with 30 samples.

Results

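The H3K4me3 landscape of mouse embryonic stem cells was compared with and without depletion of Elongin B (EloB), using every called peak of 3 chromatin immunoprecipitation (ChIP-seq) lists. The list upon EloB knock-down held 47296 peaks. Its matched control, H3K4me3 replicate 2, held 42857, and the second control, H3K4me3 replicate 1, held 35027. Together these are 125180 of the 240359 peaks in the 20 peak lists of the series, and they merged into 48719 regions. The lists were chosen by target and treatment, and no peak was left out.

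All cells were of the E14Tg2A line, a mouse embryonic stem cell line kept without feeder cells in serum with LIF. EloB was depleted with small interfering RNA at 20 μM, given on 2 successive days, and the cells were collected 48 h after the first transfection. By their track lines, the matched control is the list of a control small interfering RNA and the second control that of a control short hairpin RNA, the kind of reagent the labels describe as lentiviral, for EPOP only. The labels do not describe the control reagents, and they give all of these ChIPs the same H3K4me3 antibody and lot. A 4th H3K4me3 list, upon EPOP knock-down by stable hairpin (also C17orf96), is used only for comparison. The knock-down condition is 1 list and the control condition is 2, so nothing was tested between them. An exact permutation test of 1 list against 2 could not go below p = 0.333. The gap between the controls is given beside the main differences as the spread. The labels do not say that the lists came from separate cultures, so that spread may be technical, and it also includes the change of reagent. The amount of EloB left, read depth and signal height were not measured by these lists.

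Trimethylation of lysine 4 of histone H3 is placed at promoters by the SET1 and MLL methyltransferase complexes and marks most active genes. In embryonic stem cells it also lies, together with the polycomb mark H3K27me3, on the promoters of silent developmental genes, the so-called bivalent promoters. EloB is a subunit of the elongin complex, which supports transcription elongation by RNA polymerase II, and of ubiquitin ligases of the cullin family. EPOP binds both EloB and polycomb repressive complex 2, whose core subunit is Suz12 and one of whose accessory subunits is Jarid2. The comparison asks whether the mark stays in place, in number and in width of peaks, when EloB is depleted.

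Neither the number of called H3K4me3 peaks nor the length they cover was lower upon EloB knock-down. Peak number was 1.10 times that of the matched control, a difference of 4439 peaks, while the controls lay 7830 peaks apart (38942 ± 5537, SD, n = 2). Peaks upon EloB knock-down covered 89.4 Mb, against 80.8 Mb in replicate 2 and 63.0 Mb in replicate 1 (71.9 ± 12.6 Mb, SD, n = 2). The knock-down list was thus the longest by both measures, and its lead over the matched control was smaller than the gap between the controls. The EPOP knock-down list, with 39967 peaks and 74.0 Mb, lay between the controls. Over replicate 1, the control named for the hairpin, it had 1.14 times the peaks and 1.18 times the length. For EloB knock-down over replicate 2 these ratios were 1.10 and 1.11.

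**Figure D1:**
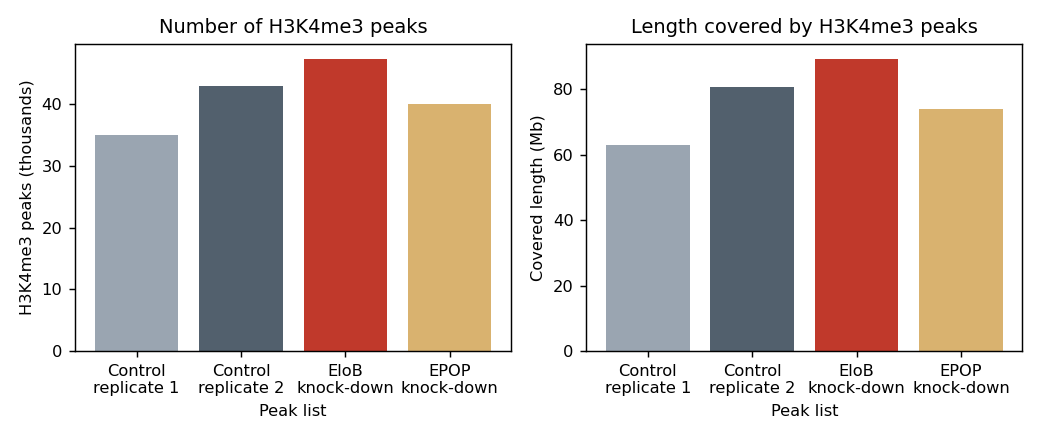
Number of H3K4me3 peaks (left) and the length they cover in Mb (right), 1 bar for each of 4 peak lists. The EloB knock-down list is highest in both panels (47296 peaks, 89.4 Mb), and the controls differ from each other by more than it differs from replicate 2.

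The peaks themselves had nearly the same size and score in all 3 lists. Median width was 1395 bp upon EloB knock-down, 1420 bp in replicate 2 and 1413 bp in replicate 1. The authors' score is at least 50 in every peak, and no source used here defines it. Its median was 353 upon EloB knock-down, 378 in replicate 2 and 393 in replicate 1. Many peaks share 1 score: 9745, 9608 and 7826 peaks of these lists carry exactly 3100, so the score cannot rank them. The highest score in each list is 3233, so 3100 is not the ceiling. Whether peaks above 3100 are stronger than those at 3100 is not known, as the score is undefined. Peaks of 5 kb or wider numbered 2019 upon EloB knock-down, 1713 in replicate 2 and 1007 in replicate 1, which follows the order of the list lengths.

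Nearly every H3K4me3 region of the control cells was found again after EloB depletion. Of the replicate 2 peaks, 94.6% (Wilson 95% interval 94.4 to 94.8, counting of peaks only) shared 1 bp or more with a peak of the knock-down list, whereas 76.3% (75.9 to 76.7) overlapped a peak of replicate 1. Of the replicate 1 peaks, 97.9% (97.7 to 98.0) overlapped a knock-down peak and 97.0% (96.8 to 97.2) a replicate 2 peak. These shares depend on list length, since a list of 35027 peaks has fewer partners to offer than one of 47296. With the 35027 highest-scoring peaks of each list, 92.7% (92.4 to 92.9) of the replicate 2 peaks were found upon knock-down and 87.9% (87.5 to 88.2) in replicate 1. Of the replicate 1 peaks, 91.4% (91.1 to 91.7) were then found upon knock-down and 91.9% (91.6 to 92.2) in replicate 2. At equal length replicate 2 thus had more partners in the knock-down than in the other control, and replicate 1 slightly fewer. In the reverse direction, with all peaks, 84.6% (84.3 to 84.9) of the knock-down peaks overlapped replicate 2 and 69.3% (68.8 to 69.7) replicate 1.

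Whether a peak was found again followed its score, here with all peaks and thus with lists of unequal length. Among replicate 2 peaks with scores of 50 to 75, 71.7% (Wilson 95% interval 70.4 to 72.9) of 5106 were found upon EloB knock-down and 20.2% (19.1 to 21.3) in replicate 1. At scores of 100 to 150 these shares were 94.4% (93.7 to 95.1) and 51.3% (49.8 to 52.7) of 4521. At 400 to 800 they were 99.98% (99.87 to 99.996) and 98.9% (98.6 to 99.2) of 4224. All 13347 peaks with a score of 1600 or more were found in both lists. Of the 26797 replicate 2 peaks with a score of 200 or more, 15 had no knock-down counterpart and 670 had none in replicate 1.

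**Figure D2:**
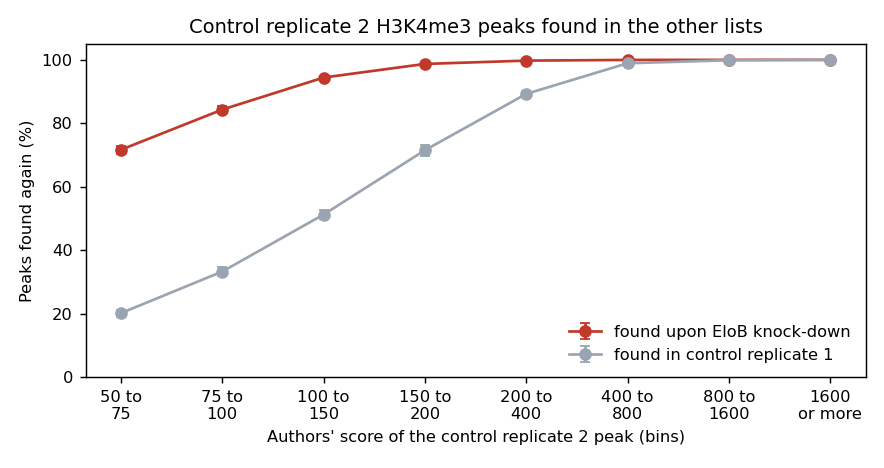
Share of control replicate 2 peaks (y axis, percent) that overlapped a peak upon EloB knock-down or in control replicate 1, in 8 bins of the authors' score (x axis); bars are Wilson 95% intervals. The knock-down points lie above those of replicate 1 in the lower bins, 71.7% against 20.2% in the lowest, and both reach 100% at scores of 1600 or more.

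Over the 48719 merged regions, 31317 (64.3%) held a peak in all 3 lists. Regions of both controls without a knock-down peak numbered 332 of 31649, or 1.05%. The same pattern was more frequent for either control: 637 regions were missing from replicate 2 alone and 7468 from replicate 1 alone. With the 3 lists trimmed to the same length, 1076 regions were missing from the knock-down alone, 891 from replicate 2 alone and 2463 from replicate 1 alone. With peaks below the control median score left out of every list, these counts were 46, 28 and 3438. So the knock-down lacked the fewest regions with all peaks, and lay between the controls in both other settings.

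**Figure D3:**
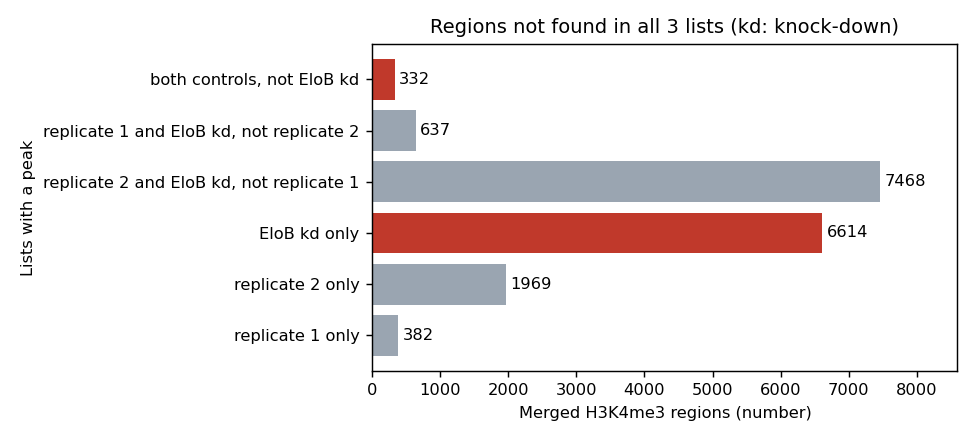
Number of merged H3K4me3 regions (x axis) for each combination of lists with a peak (y axis), leaving out the 31317 regions found in all 3; red marks the patterns in which the EloB knock-down (kd) stands alone. Only 332 regions were missing from the knock-down alone, against 637 and 7468 for the controls, and 6614 were found in it alone.

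The 332 missing regions were weak and rarely overlapped polycomb peaks, as did regions missing from replicate 2 alone. Their median width was 660 bp in replicate 2 and 628 bp in replicate 1, and their median scores were 78.2 and 67.7. They overlapped Suz12 in 5 cases (1.51%), H3K27me3 in 6 (1.81%), and EPOP, EloB and Jarid2 in 3 each (0.904%). Among the 637 regions missing from replicate 2 alone, Suz12 lay at 1.26% and H3K27me3 at 1.88%, and among the regions of all 3 lists at 19.1% and 19.2%. The list upon EPOP knock-down held a peak in 181 of them (54.5%), and in 380 (59.7%) of the 637 regions missing from replicate 2 alone. Over 4 lists, 175 regions were missing from the EloB knock-down alone, 376 from replicate 2, 1057 from the EPOP knock-down and 3802 from replicate 1.

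A few missing regions carried clear peaks in the control lists, and the 5 with the highest control score are described here (all coordinates mm9, counted from 1). On chromosome 14, 66165648 to 66167074, replicate 1 held a peak of 1427 bp with a score of 587 and replicate 2 a peak of 780 bp with a score of 117. At chromosome 11, 100394649 to 100395995, replicate 2 had 1347 bp with a score of 506 and replicate 1 had 912 bp with a score of 98.3. These 2 regions were each strong in 1 control and weak in the other. At chromosome 6, 54774506 to 54776093, both controls had a wide peak: replicate 2 had 1588 bp with a score of 326 and replicate 1 had 1091 bp with a score of 184. The others were chromosome 2, 110789376 to 110790556 (scores 331 in replicate 1 and 80.2 in replicate 2), and chromosome 7, 50433958 to 50434678 (274 and 77.7). All 5 also held a peak in the EPOP knock-down list, with scores from 60.9 to 389, and none overlapped EPOP, EloB, Suz12, H3K27me3 or Jarid2. They were thus present in 3 of the 4 H3K4me3 lists and absent from the longest one.

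Peaks found upon EloB knock-down and in neither control numbered 6614, or 13.6% of all regions. Regions of replicate 2 alone numbered 1969 and those of replicate 1 alone 382, the order of the list lengths. With lists of equal length the counts were 2083, 1479 and 1887, so most of the difference to replicate 1 was gone. With peaks below the control median score left out of every list they were 2108, 398 and 43. The knock-down peaks alone had a median width of 771 bp and a median score of 72.5, and those of replicate 2 alone 657 bp and 65.2. They were more often above the weakest scores: 1479 of them (22.4%) scored 100 or more, against 211 (10.7%) of those in replicate 2 alone. At 200 or more these numbers were 120 (1.81%) and 8 (0.406%). The 2 sets were not formed alike, since peaks of replicate 2 alone had to be absent from the longer knock-down list. These score shares were not compared with lists of equal length.

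New H3K4me3 peaks were rarely at polycomb targets. Their median distance to the nearest peak of either control was 4787 bp, and 33.7% lay more than 10 kb away. For regions of replicate 2 alone, measured to the other 2 lists in the same way, the median was 8110 bp, with 47.1% beyond 10 kb. Within 1 kb of a peak lay 19.7% and 20.1%. Of the 6614, 178 (2.69%) overlapped H3K27me3, 109 (1.65%) Suz12, 97 (1.47%) EPOP and 4 (0.0605%) EloB, against 19.2%, 19.1%, 18.3% and 2.79% of the regions found in all 3 lists. The regions of replicate 2 alone had similarly low shares, 2.03% with H3K27me3 and 1.42% with Suz12. The EPOP knock-down list held a peak at 1293 of the 6614 (19.5%) and at 425 of the 1969 (21.6%).

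The new peak with the highest score lay on chromosome 11, 100823189 to 100826124, 2936 bp wide with a score of 530. Wide new peaks also lay on chromosome 5, 123816844 to 123819748 (2905 bp, score 459), and chromosome 7, 28168267 to 28170264 (1998 bp, score 494). The remaining 2 of the 5 with the highest scores were chromosome 3, 121457550 to 121458837 (1288 bp, score 456), and chromosome 6, 90585026 to 90586566 (1541 bp, score 382). Only the first held a peak upon EPOP knock-down, of 971 bp with a score of 120. None of the 5 overlapped EPOP, EloB, Suz12, H3K27me3 or Jarid2. These peaks were well above the 72.5 median of the new peaks and below the 1104 median of the knock-down score in regions shared by all 3 lists.

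Width was compared over the 31317 regions with a peak in all 3 lists, as the log2 ratio of summed peak width. EloB knock-down peaks were slightly wider than those of the matched control, with a median log2 ratio of 0.045 (1.03-fold), and 63.6% of regions were wider by any amount. Against replicate 1 the median was 0.22 (1.16-fold), with 89.0% wider. Replicate 1 over replicate 2 gave −0.17 (0.891-fold). The shift against the matched control was therefore smaller than that between the controls. EPOP knock-down over replicate 1 gave 0.11 in 30260 regions.

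**Figure D4:**
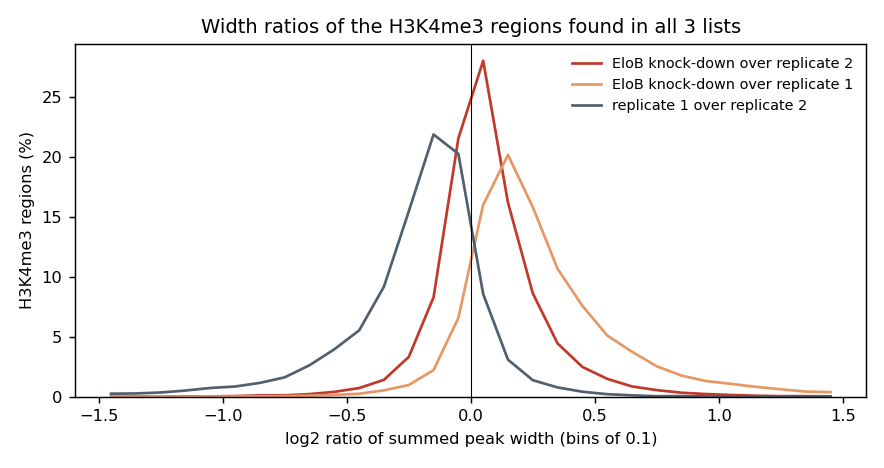
Distribution of the log2 ratio of summed H3K4me3 peak width over the 31317 regions found in all 3 lists, as percent of regions in bins of 0.1. The EloB knock-down over replicate 2 (red) is centred at a median of 0.045, close to 0, whereas replicate 1 over replicate 2 (dark) is centred at −0.17.

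Against the matched control the gain in width was larger for narrow peaks. Among 10 groups of regions formed on replicate 2 width, the narrowest had a median of 660 bp and a median log2 ratio of 0.12, and the widest had a median of 5447 bp and a ratio of 0.032. Replicate 2 width is also the denominator, so part of that slope is fixed by the choice. Against replicate 1 the same groups gave 0.17 and 0.21, and the groups between them ran from 0.19 to 0.26, highest in the second to the fourth narrowest. Broad H3K4me3 domains were kept without exception: all 1347 regions of 5 kb or wider in both controls held a knock-down peak. Their median widths were 6529 bp in replicate 1, 7305 bp in replicate 2 and 7499 bp upon EloB knock-down. Their median replicate 2 score was 3100, and replicate 2 peaks of 1600 or more were all found in both other lists. Being kept was thus not particular to broad domains.

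The widest domains differed little between lists. The widest knock-down peak, on chromosome 12, 87803888 to 87840575, measured 36688 bp upon EloB knock-down, 35314 bp in replicate 2 and 33944 bp in replicate 1. A domain on chromosome 3, 41357581 to 41388883, measured 31303 bp, 30553 bp and 30128 bp in the same order. On chromosome 13, 44823034 to 44853357, 1 peak of 30324 bp stood upon knock-down and 1 of 30121 bp in replicate 2, while replicate 1 had 4 peaks that summed to 25821 bp. Such breaks were more frequent in the shorter lists. Regions split into several peaks made up 6.42% in replicate 1, 4.76% in replicate 2 and 3.48% upon EloB knock-down. The other 2 of the 5 widest, chromosome 2, 32005438 to 32039248, and a domain on chromosome 18, differed from replicate 2 by log2 0.0036 and 0.053. All of the 5 widest carried the shared score of 3100 in each of the 3 lists.

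Differences were also small at the knock-down peaks with the highest score. Of 10 peaks at 3233, the first 5 by alphabetical order of chromosome name were read, and the one on chromosome 18 differed from replicate 2 by log2 −0.025. On chromosome 1, 120941223 to 120953485, summed width was 12262 bp upon knock-down, 11328 bp in replicate 2 and 10581 bp in replicate 1. On chromosome 11, 77927918 to 77930328, it was 2337 bp, 2319 bp and 2268 bp. On chromosome 13, 21312914 to 21316034, it was 2798 bp, 3121 bp and 2489 bp, which puts the knock-down between the controls. The only one of the 5 with a difference near the 1.5-fold mark was chromosome 15, 83997838 to 84000189, a region with EPOP, Suz12 and H3K27me3. It measured 2350 bp upon knock-down, 1602 bp in replicate 2 and 1904 bp in replicate 1 (1.47-fold and 1.23-fold).

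Regions that stood apart from both controls in width were few. Wider by over 1.5-fold against each control were 599 of 31317 regions, which is 1.91%, and narrower by as much were 43, which is 0.137%. These counts moved with the settings. Without peaks below the control median score they were 246 and 12, and with peaks up to 1000 bp apart joined 1079 and 66. With replicate 1 left out they were 1669 and 393, and with replicate 2 left out 4482 and 108. Over the same 31317 regions, the counts against replicate 2 alone were 802 (2.56%) and 225 (0.718%). When each control took the place of the knock-down, replicate 2 was wider than both other lists in 126 regions and narrower in 59, and replicate 1 was wider in 26 and narrower in 2408. With all peaks, narrowing upon EloB knock-down was thus rarer than for either control, and widening more frequent. With each ratio centred on its median, which is 0.045 against replicate 2 and 0.22 against replicate 1, 396 regions were wider and 83 narrower, so the share of wider among those past the fold depended on the shift of the whole list. Compared with 3 lists, the EPOP knock-down included, 350 regions were wider and 31 narrower upon EloB knock-down, against 54 and 35 for replicate 2. By the same rule the EPOP knock-down had 48 and 135, and replicate 1 had 6 and 1105.

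Widened regions were mostly weak and narrow in the controls, and overlapped polycomb peaks less often than other regions. Control width is the denominator of the ratios that chose these regions, so part of their narrowness is fixed by the choice. Their median width was 973 bp in replicate 1, 1129 bp in replicate 2 and 2082 bp upon EloB knock-down, and their control scores had medians of 107 and 206, below the 523 and 953 of all regions shared by the 3 lists. They overlapped H3K27me3 in 51 cases (8.51%), Suz12 in 40 (6.68%), EPOP in 38 (6.34%), Jarid2 in 18 (3.01%) and EloB in 3 (0.501%). Among the 30675 regions past the fold in neither direction these shares were 19.4%, 19.4%, 18.5%, 8.22% and 2.84%. Growth was usually to 1 side: of 523 widened regions with a single peak in each list, 337 (64.4%) had at least 80% of the added length on 1 flank, with a median of 668 bp on the larger side and 96 bp on the smaller. Widened regions of replicate 2 grew in the same way, with 80 of 112 (71.4%). In 34 of the 599 the knock-down list had fewer peaks than a control, where separate peaks had joined.

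Among regions at least 1000 bp wide in both controls, 22596 in number, 268 were wider and 31 narrower, and the 5 at each end are described. The largest gain lay on chromosome 15, 97614476 to 97619060, a region with H3K27me3. It measured 4562 bp upon EloB knock-down, 1621 bp in replicate 2 and 1523 bp in replicate 1, and 1721 bp upon EPOP knock-down. Its left edge lay at 97614499 upon knock-down and at 97614476 in replicate 2, and its right edge at 97619060 and 97616096, so the added length was on the right. At chromosome 17, 26341535 to 26345682, widths were 4148 bp upon EloB knock-down, 1553 bp in replicate 2, 1282 bp in replicate 1 and 1506 bp upon EPOP knock-down, with the growth on the left flank. At chromosome 12, 114037714 to 114041282, which carried EPOP, Suz12 and H3K27me3, they were 3561 bp, 1395 bp, 1263 bp and 1196 bp. The other 2 lay on chromosome 2, at 170111695 to 170116125 (4373 bp against 1796 bp in replicate 2 and 1413 bp in replicate 1) and at 173109160 to 173112643 (3484 bp against 1432 bp and 1093 bp). In all 5 the EPOP knock-down width was close to the controls, from 1151 to 1721 bp. These 5 are the extremes and do not stand for all widened regions. Of all 599, 551 held an EPOP knock-down peak, and 133 of these (24.1%) were over 1.5-fold wider upon EPOP knock-down than in replicate 1. Among regions past the fold in neither direction that share was 5.94%. Replicate 1 width is a denominator in both choices, and its part in this was not tested.

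The strongest narrowing lay on chromosome 8, 80537260 to 80540337. The controls had nearly equal widths, 2608 bp in replicate 1 and 2589 bp in replicate 2, though their edges were offset. The EloB knock-down peak measured 645 bp (0.249-fold of replicate 2) with a score of 67.2, and the EPOP knock-down peak measured 1359 bp. On chromosome 2, 129245079 to 129247848, the knock-down peak was 646 bp, against 2105 bp in replicate 2, 2551 bp in replicate 1 and 2685 bp upon EPOP knock-down. On chromosome 7, 50421991 to 50423841, it was 792 bp, against 1704 bp, 1609 bp and 1825 bp. The last 2 were chromosome 8, 126886526 to 126888186 (645 bp against 1397 bp and 1661 bp), and chromosome 11, 100795844 to 100797860 (803 bp against 1623 bp and 1896 bp). None of these 5 regions overlapped EPOP, EloB, Suz12, H3K27me3 or Jarid2, and in 4 of them the EPOP knock-down width was above that of the wider control.

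**Figure D5:**
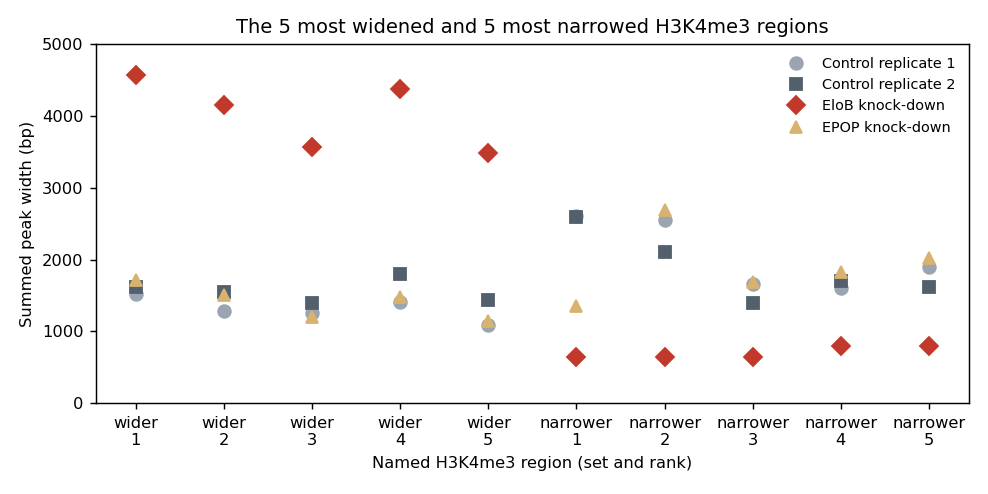
Summed H3K4me3 peak width in bp (y axis) at the 5 most widened and the 5 most narrowed regions (x axis), 1 symbol for each of 4 lists. EloB knock-down (red) lies at 3484 to 4562 bp above all other lists in the widened regions and at 645 to 803 bp below all of them in the narrowed ones.

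Some of these regions were neighbours. The narrowed region on chromosome 7 lay 10.1 kb from the missing region at 50433958, and the narrowed region on chromosome 11 lay 25.3 kb from the new peak with the highest score. The missing region on chromosome 11 was 400 kb from that narrowed one. These pairs were noticed after the values were seen. Among all 43 narrowed regions, 4 had a missing region within 50 kb and 2 had another narrowed one. Of the 599 widened regions, 9 had a missing region and 6 a narrowed one within that reach. The share over all regions was not computed, so whether such neighbours are unusual was not tested.

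H3K4me3 regions that overlapped EloB, EPOP or polycomb peaks were kept almost completely, as were H3K4me3 regions in general: of all 31649 regions of both controls, 99.0% (Wilson 95% interval 98.8 to 99.1) held a knock-down peak. Of 877 H3K4me3 regions of both controls that overlapped EloB peaks of both EloB replicates, 874 (99.7%, Wilson 95% interval 99.0 to 99.9) were kept, an interval that starts at about the share of all regions. The shares were 99.9% (99.8 to 99.98) of 5724 regions with EPOP, 99.9% (99.8 to 99.96) of 5995 with Suz12, 99.9% (99.8 to 99.95) of 6015 with H3K27me3 and 99.9% (99.7 to 99.96) of 2542 with Jarid2. Of 24288 regions with none of these, 98.7% (98.5 to 98.8) were kept. With replicate 2 in the place of the knock-down, the shares were 99.9% with EloB, 99.8% with H3K27me3 and 97.5% with none, so the order of bound and unbound regions was the same for a control. Strength differed between these classes: the median replicate 2 score was 2955 with EloB, 2187 with EPOP, 1911 with H3K27me3 and 623 with none. Its part in the difference was not tested.

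The median width ratio was also close between bound and unbound regions. The median log2 ratio of EloB knock-down over replicate 2 was 0.041 in the 874 EloB-bearing regions and 0.045 in the other 30443, a difference of −0.0041. In median widths the EloB-bearing regions went from 2631 bp in replicate 2 to 2712 bp upon knock-down, with 2320 bp in replicate 1. For H3K27me3 the medians were 0.039 in 6009 regions and 0.047 in 25308, a difference of −0.0075. Between the controls, replicate 1 over replicate 2, the same differences were 0.021 and 0.0064. Against replicate 1 the differences of the knock-down were −0.030 for EloB and −0.017 for H3K27me3, larger than those between the controls. Whether they exceeded the gap between controls therefore turned with the control used for EloB, and neither kept its sign in every setting. When peaks below the control median score were left out of every list they were 0.0052 for EloB and 0.0032 for H3K27me3, and within quartiles of replicate 2 width that of H3K27me3 was 0.0039.

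Large changes in width were rarer where these proteins or the mark lay, for the knock-down and for a control. Past 1.5-fold wider were 3 of 874 EloB-bearing regions (0.343%), 38 of 5721 with EPOP (0.664%), 40 of 5990 with Suz12 (0.668%) and 51 of 6009 with H3K27me3 (0.849%), beside 1.91% of all regions. Replicate 2 against both other lists also had lower shares in these classes, with 1 EloB-bearing region wider (0.114%), 3 with EPOP (0.0524%), 5 with Suz12 (0.0835%) and 6 with H3K27me3 (0.0999%), beside 0.402% of all regions. Within each quartile of replicate 2 width the H3K27me3-bearing regions again had the lower share: 2.23% against 4.13% in the narrowest, 1.26% against 2.49%, 0.526% against 1.31%, and 0.0784% against 0.458% in the widest. In the 3 narrower quartiles the H3K27me3-bearing regions also had higher median replicate 2 scores, 252 against 160, 1039 against 438 and 2809 against 2609, and in the widest both were at 3100. The part of score in this was not tested. Narrowed regions numbered 0 of 874 with EloB, which allows a share of up to 0.343% (3 counts), 2 with EPOP, 1 with Suz12 and 1 with H3K27me3, beside 0.137% of all regions.

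Suz12 upon EloB knock-down gave a second reading of the same regions. Of 5995 H3K4me3 regions with Suz12, 5846 (97.5%) held both an H3K4me3 and a Suz12 peak after EloB depletion, 144 held only H3K4me3, 5 only Suz12 and 0 neither. These regions were chosen by peaks of both Suz12 replicates, so no control share of Suz12 can be set beside the 144. Whether Suz12 peaks were lost more than H3K4me3 peaks was therefore not tested. The widest Suz12 region without a Suz12 peak upon EloB knock-down, chromosome 11, 96129226 to 96216942, spans 87717 bp. Over that stretch H3K4me3 peaks covered 30351 bp in 20 peaks upon EloB knock-down, 23843 bp in 18 peaks in replicate 2 and 14945 bp in 13 peaks in replicate 1. Called H3K4me3 peaks there were therefore not lost together with the called Suz12 peak. This stretch is 1 Suz12 region with many H3K4me3 peaks, so the 144 need not be separate losses of Suz12. How many of them lie in it is not given here.

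The regions were also read in the H3K4me3 list upon EPOP knock-down, set against replicate 1, the control named for the hairpin. This comparison and that of EloB knock-down and replicate 2 share no list. Of 30260 regions with a peak in all 4 lists, 1896 (6.27%) were wider upon EPOP knock-down and 205 (0.677%) narrower by over 1.5-fold. Wider upon EloB knock-down against replicate 2 were 722 (2.39%), and narrower were 194 (0.641%). Both knock-downs widened 142 regions, which is 19.7% of the EloB set and 7.49% of the EPOP set. Both narrowed 7 regions, which is 3.61% and 3.41%. Regions were not matched on width or score here, though widening upon EloB knock-down was more frequent in narrow regions. The part of width in the overlap was not tested.

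By chromosome the comparison was even. Over the 19 autosomes the ratio of peak number, EloB knock-down over replicate 2, ran from 1.07 on chromosome 13 to 1.14 on chromosome 5, with a median of 1.10. Chromosome X had a lower ratio than any autosome, 1.05 (1091 against 1043 peaks), and a lower median log2 width ratio, 0.021 against 0.032 to 0.063. Replicate 1 over replicate 2 gave 0.805 on X, within the autosomal range of 0.764 to 0.849. Chromosome Y held 9, 8 and 5 peaks upon knock-down and in replicates 2 and 1.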

How the data were processed

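Each peak list belongs to 1 ChIP sample and gives chromosome, start, end and a score for each peak, as deposited by the authors. Peak names carry MACS per the file headers, and the submitters' processing notes name Bowtie, TopHat, Cufflinks and the build mm9 without roles. The caller's version and settings, and read depth, are not given in the sources used here. A deeper library yields more and wider peaks, so number and width partly measure depth.

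Of the 20 lists, 13 were read. Peaks of the 3 H3K4me3 lists were merged into regions where they overlapped by at least 1 bp, and width was summed per list and region. Overlap with other targets was read over the span of the control peaks (of the knock-down peaks where no control had one): with peaks found in both replicates of EPOP, EloB and Suz12, and with all peaks of the single H3K27me3 and Jarid2 lists. Shares carry Wilson 95% intervals. No test was run, since the knock-down is 1 list. Regions were named by a rule: 5 each of the missing and new regions with the highest scores, the most widened and most narrowed regions at least 1000 bp wide in both controls, and the widest and highest-scoring knock-down peaks. Comparisons and lists were chosen with earlier results of these data known.

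Alternatives were removal of peaks with scores below the control median of 384, lists of equal length, a shared length of 0.5 or more of the shorter peak, peaks up to 1000 bp apart joined, autosomes only, each control left out, a 2-fold threshold and matching on width. Centring of width ratios was added after seeing the data. No gene was assigned to a region and no sequence is shown, because no mm9 annotation or genome was used here, so the gene and cell type marker lists set for promoters were not read. The files used were not checked for cell identity for the same reason. Python 3.11.15, NumPy 2.4.6, Matplotlib 3.10.9 and bedtools 2.31.1 were used. The overlap code gave the bedtools count in all 169 ordered pairs of the 13 lists. In simulated data on 21388 isolated peaks, 200 of 200 regions widened 2-fold were called past 1.5-fold. Simulated noise was small and no peak split or joined, so this checks the code and not the reliability of the widened calls.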

Additional observations from a re-analysis of the deposited data

How the results depend on the processing

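The number of peaks, the direction of the median width ratio and the finding that few control regions lacked a knock-down peak were tried under the other settings. No paired analysis was possible because the EloB knock-down is a single list without a replicate number. The choice of control moved most values. Leaving out each control in turn gave ratios of peak number of 1.10 and 1.35, kept shares of 94.6% and 97.9%, and median log2 width ratios of 0.053 and 0.21. It gave 737 to 2317 missing regions, 7285 to 14542 new ones, 1669 to 4482 wider regions and 108 to 393 narrower ones, the larger wider count and the smaller narrower count being without replicate 2. The H3K27me3 difference was then −0.016 to −0.015 and the EloB difference −0.030 to −0.011. With 1 control fewer conditions have to be met, and the cause of the rest was not tested.

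With peaks below the control median score removed, the kept share was 97.9%, and there were 46 missing, 2108 new, 246 wider and 12 narrower regions. The H3K27me3 and EloB differences turned to 0.0032 and 0.0052 there, and the H3K27me3 difference to 0.0039 within quartiles of width. The cause was not tested. With lists of equal length, made by removing the lowest-scoring peaks of the longer lists, the kept share was 92.7%, with 1076 missing and 2083 new regions. Joined peaks gave a kept share of 94.997%, 1079 wider and 66 narrower regions, and overlap of at least 0.5 a kept share of 94.3%. A 2-fold threshold left 93 wider and 8 narrower regions, and centred ratios 396 and 83. The other 37 values stayed within the spread between controls, the Wilson interval or 1.5 times the count. Some of them were fixed in advance. The ratio of peak number is 1 with lists of equal length, and without replicate 1 this ratio and the kept share cannot change. For peak number and the median width ratio the spread allowed was larger than the shift itself, so staying within it is weak support. Depth is unknown and can move every called peak set, so absence of a peak gives no level of H3K4me3.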
